A study of Mus musculus with 14 samples.

Results

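The comparison described here is that of early 2-cell mouse embryos cultured without lactate with early 2-cell embryos cultured with it. It rests on 4 of the 14 RNA-seq libraries of the series, 2 of the G&N-L group and 2 of the G&N group, chosen by their titles. All 4 libraries came from ICR embryos, an outbred stock, moved at 24 h post-hCG into mKSOM medium with 5 µM Gne140, an inhibitor of the lactate dehydrogenases LDHA and LDHB, and 50 µM NMN, a precursor of NAD. The medium of the G&N group held 10 mM lactate and that of the G&N-L group held none, and both groups were collected at 30 h post-hCG. Both groups thus carried the inhibitor and NMN, and neither was an untreated control. Each library pooled 5 embryos, so that neither the embryos of a library nor the blastomeres of an embryo are separate replicates. The deposited treatment tags name Gne140 and NMN for the early G&N-L libraries and Gne140 alone for the early G&N libraries, without a word on lactate, so the groups were read from the titles and the methods of the study. The description covers 17343 genes that passed a filter on low counts, of 56923 in the count table.

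At this stage the embryo still lives on the RNA and protein that the oocyte stored. Maternal transcripts are held by mRNA storage factors, deadenylated by the CCR4-NOT complex with its egg-specific adaptor BTG4, and cleared in steps. A first low wave of embryonic transcription, minor zygotic genome activation (ZGA), starts in the zygote and runs into the early 2-cell embryo, and major ZGA follows in the late 2-cell embryo. Lactate dehydrogenase interconverts lactate and pyruvate with NAD as its partner, and cleavage-stage embryos use pyruvate and lactate in preference to glucose. The question asked of the early stage is whether the transcript pool already differs when lactate is taken away before the main wave of activation.

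The library totals were 61275465 and 53215587 counts in G&N and 47998020 and 23473359 counts in G&N-L. At these totals the 3 counts that a listed 0 leaves possible come to 0.0490 to 0.128 CPM, counts in proportion to library size, a limit for counting error alone, as the cDNA was amplified by PCR. Genes with at least 10 counts numbered 14820 to 18567 per library. The labelled stage was checked against markers. Of the genes that define oocytes and early embryos, Dppa3, Btg4, Ooep, Nlrp5, Gdf9, Bmp15 and Zp3 all passed the filter. Among them Zp3, a zona pellucida protein gene, was lowest at 27.4 to 49.7 CPM, and Dppa3 reached 10124 to 21457 CPM. Of 16 cumulus and granulosa cell markers, 6 were at 0 in all 4 libraries (Amh, Inha, Inhba, Foxl2, Tnfaip6 and Ptx3), and the list summed to 18.3 to 28.1 CPM, led by Cyp19a1 (aromatase) at 11.7 to 19.0 CPM. Fshr, the follicle-stimulating hormone receptor gene, had 396, 110, 0 and 50 counts. Of 10 sperm markers, 6 were at 0 in all 4 libraries and the list summed to 16.1 to 23.7 CPM, led by the protamine gene Prm2 at 11.7 to 17.0 CPM. Values per library are shares of that library's RNA, so a fall in RNA per embryo and a change in the number of cells that hold it cannot be told apart.

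The 4 libraries did not separate by lactate. Pearson's r across the 17343 genes, on log2(CPM + 1), was 0.956 between the G&N libraries and 0.959 between the G&N-L libraries. Between the groups it ran from 0.953 to 0.966, and the highest value joined G&N 1 with G&N-L 2. Of the 8110 genes with a mean of at least 5 CPM, 12.4% differed by more than 2-fold between the G&N libraries and 7.26% between the G&N-L libraries. In the pairs that crossed the groups the share was 7.94% to 10.3%. Genes are not independent replicates, and these values describe the libraries only.

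No gene passed an adjusted p of 0.05 in G&N-L against G&N. By edgeR's quasi-likelihood test with Benjamini-Hochberg adjustment, 0 of 17343 genes were called (0%) and the smallest adjusted p was 0.9999. Without adjustment 784 genes (4.52%) had a p under 0.05, against 867 that chance gives. A looser fold criterion, with p under 0.05 before adjustment and a log2 fold change larger than 0.5 in size, was met by 781 genes (4.5%), of which 466 were lower (2.69%) and 315 higher (1.82%). The median log2 fold change over all genes was -0.01, with 8755 genes lower and 8588 higher. The groups did not overlap for 5743 genes (33.1%), with 2970 lower in G&N-L (17.1%) and 2773 higher (16%). DESeq2 on the same genes called 37 (0.213%), 16 lower and 21 higher, and edgeR without a filter on low counts called 42 of 26885 (0.156%). The count of higher genes past the fold criterion moved with the library left out, to 164 without G&N-L 1, 759 without G&N 1 and 504 without G&N 2.

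The intervals say how large a difference the 4 libraries leave possible. The 95% interval of the log2 fold change lay wholly within 1 log2 unit of 0, that is within 2-fold, for 3137 genes (18.1%). The share depended on level. It was 0% for the 4724 genes under 1 CPM and for the 4509 genes at 1 to 5 CPM, 6.44% for the 3478 genes at 5 to 20 CPM, 53.2% for the 3102 genes at 20 to 100 CPM, 81.3% for the 1222 genes at 100 to 500 CPM and 87.7% for the 308 genes at 500 CPM and over. The median size of the interval's arm fell from 5.35 log2 units under 1 CPM to 0.504 at 500 CPM and over. For genes at 500 CPM and over, the median difference between groups was 0.161 log2 units and the median difference between replicates was 0.211. These are unlike measures, as the first compares groups of 2 libraries and the second compares single libraries, so their order has no meaning. For genes under 5 CPM a change of 2-fold was thus not detectable at this depth and number of libraries. With 1 G&N-L library the count of narrow intervals was 487 (without G&N-L 1) or 576 (without G&N-L 2).

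**Figure D1:**
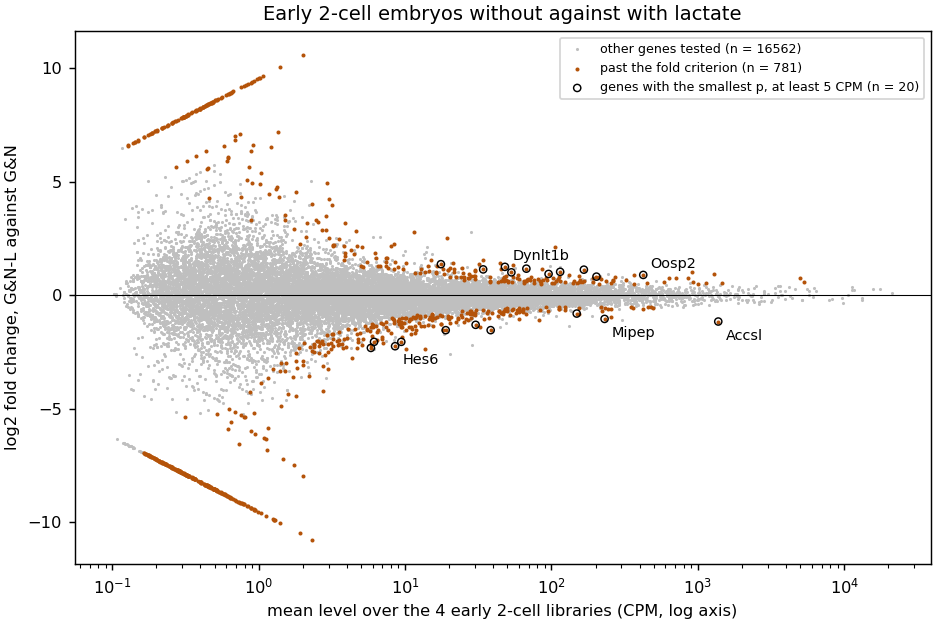
The log2 fold change of G&N-L against G&N (y axis) is plotted against the mean level over the 4 early libraries in CPM (x axis, log), 1 point per gene. The 781 genes past the fold criterion lie on both sides of 0 and mostly at low levels, circles mark the 20 genes with the smallest p at 5 CPM or more, and the slanted lines at the left are genes with 0 counts in both libraries of 1 group.

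The maternal profile was led by a small set of transcripts. On TPM, a scale that divides counts by merged exon length and so lets genes be compared, the 15 highest genes took 22.3% to 28.8% of all TPM in each library. They were Dppa3, a maternal factor that protects DNA methylation in the zygote, mt-Cytb and mt-Nd1 of the mitochondrial genome, the oocyte F-box gene Fbxw24, Omt2a and Omt2b, Rfpl4, Oog3, Pttg1 (securin), the BCL2 family member Bcl2l10, the homeobox gene Obox5, the deadenylation adaptor Btg4, the cyclin-dependent kinase partner Cks2, Mphosph6 and Tcl1. None passed the fold criterion, beside 4.5% over all genes. An interval within 2-fold was reached by 13 of the 15, beside 87.7% of all genes at 500 CPM and over. The groups overlapped for 12 of the 15, while over all genes 33.1% had groups that did not overlap. The log2 fold changes of the 15 ran from -0.34 to 0.35 with standard errors of 0.142 to 0.401.

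Dppa3 (ENSMUSG00000046323.9, mm39 chr6:122586548-122607237) stood at 24075 and 41169 TPM in G&N and at 41771 and 36645 TPM in G&N-L. The low value belonged to G&N 1 and the other 3 libraries lay close together. Its log2 fold change was 0.28 (interval -0.61 to 1.17). mt-Cytb, a subunit of respiratory complex III, stood at 25099 and 47836 TPM in G&N and at 34158 and 28826 TPM in G&N-L, so that the G&N libraries enclosed both G&N-L libraries. Btg4 (ENSMUSG00000032056.11, chr9:50972201-51031175) stood at 13499 and 13203 TPM in G&N and at 12006 and 11574 TPM in G&N-L. Its log2 fold change was -0.12 (interval -0.54 to 0.29) on the normalized count scale, where the groups overlapped. Rfpl4 stood at 21491 and 17508 TPM in G&N and at 14538 and 14923 TPM in G&N-L, the lowest log2 fold change of the 15 at -0.34 (interval -0.69 to 0.02). Of the 15 genes, 9 had their lowest TPM in G&N 1 and 7 their highest in G&N 2. The log2 fold changes of Dppa3, Omt2a, Omt2b, Cks2, Mphosph6 and mt-Nd1 took the opposite sign without G&N 1, and those of mt-Cytb, Oog3, Obox5 and Btg4 did so without G&N 2.

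**Figure D2:**
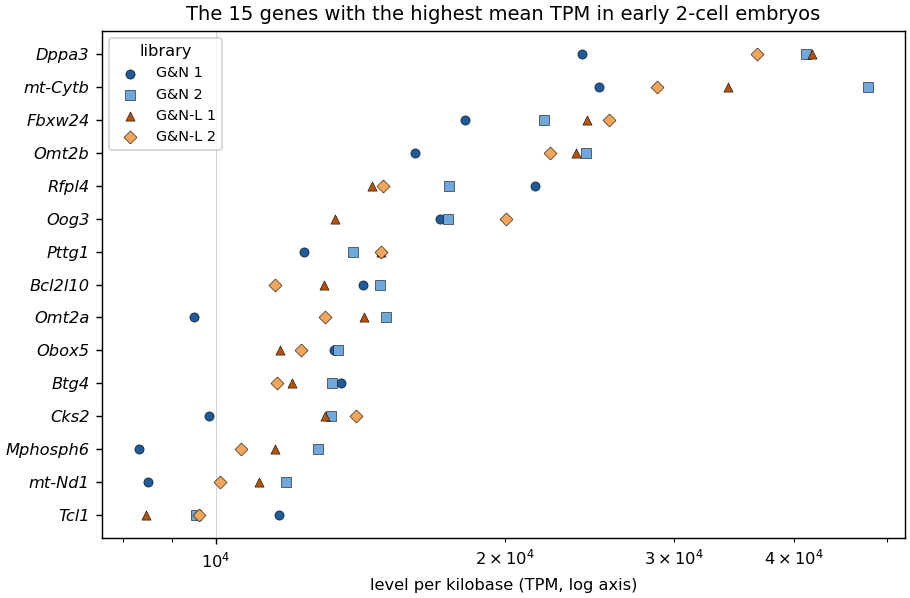
The level per kilobase in TPM (x axis, log) of the 15 highest genes (rows) is shown in each of the 4 early 2-cell libraries, 1 mark per library. G&N 1 (dark circles) holds the lowest value in 9 of the 15 rows, and the G&N-L marks lie between or beside the G&N marks in most rows.

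Maternal genes were grouped in 8 lists with 128 members, of which 127 passed the filter. In G&N-L 79 of these had a lower and 48 a higher level than in G&N, with a median log2 fold change of -0.12 beside -0.01 over all genes. The spread between replicates was 0.29 (SD). For this and the other lists, that spread is of the list's median log2 level per library on library totals without TMM, not of the median fold change. The fold criterion was met by 2 genes that were lower and 1 that was higher, beside 2.69% and 1.82% over all genes. An interval within 2-fold was reached by 74 of the 127. The groups did not overlap for 30 members lower and 10 members higher in G&N-L, beside 17.1% and 16% over all genes. Together the 128 genes took 168764 and 182733 CPM in G&N and 170174 and 172427 CPM in G&N-L, as shares of the library totals, so the G&N libraries enclosed the G&N-L libraries. The median was 0.00 without G&N 1, where that of all genes was 0.09. The maternal median was -0.14 without G&N 2, -0.09 without G&N-L 1 and -0.16 without G&N-L 2. That of all genes was -0.0005, -0.15 and -0.10 in the same order. With 1 G&N-L library fewer members had an interval within 2-fold.

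By role, the median was -0.14 for the 8 genes of the subcortical maternal complex, which anchors to the oocyte cortex and is needed for the first cleavage. Ooep, a core subunit, stood at 1372 and 1035 CPM in G&N and at 1224 and 1141 CPM in G&N-L. Nlrp4f, the member with the smallest p, had a log2 fold change of -0.21 (interval -0.59 to 0.18), and Zbed3, the member of highest TPM, -0.32 (interval -0.98 to 0.33). Nlrp5, which founds the complex, stood at 695 and 528 CPM in G&N and at 566 and 738 CPM in G&N-L, so that the libraries of the groups interleaved. The median was -0.29 for 11 zona, surface and secreted oocyte genes, where Bmp15 and Gdf9, the growth factors by which the oocyte directs its follicle cells, had log2 fold changes of -0.30 (interval -0.74 to 0.14) and -0.35 (interval -1.06 to 0.36). It was -0.13 for 10 oocyte transcription factors tested, -0.07 for 14 genes of mRNA storage and translation control, 0.04 for 23 genes of maternal mRNA decay, -0.22 for 14 genes of meiosis and egg activation, -0.07 for 21 maternal chromatin factors and -0.16 for 26 other oocyte-enriched genes. Most of these medians changed sign with 1 library left out. Without G&N 1 they were 0.26 for the subcortical complex, 0.10 for the zona and secreted genes, 0.25 for mRNA storage and 0.01 for meiosis and egg activation, without G&N 2 0.06 for the transcription factors, and without G&N-L 2 -0.05 for mRNA decay. In the storage group, Dazl, an RNA-binding translation activator, stood at 1769 and 1741 CPM in G&N and at 1662 and 1471 CPM in G&N-L. Eif4e1b, the oocyte form of the cap-binding protein, had a log2 fold change of -0.52 (interval -1.18 to 0.14). Among the transcription factors, the homeobox gene Obox7 had a log2 fold change of 0.38 (interval -0.32 to 1.09). Cnot6, a deadenylase of the CCR4-NOT complex, had the smallest p of the decay group with a log2 fold change of 0.70 (interval -0.03 to 1.44). H1f8, the oocyte linker histone, had the smallest p of the meiosis and egg activation group at -0.36 (interval -0.79 to 0.08), and Spin1, a reader of histone methylation and the gene of highest level in its group, stood at 0.27 (interval -0.29 to 0.82).

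The 3 maternal genes past the fold criterion were Accsl, Hsf1 and Oosp2. Accsl (ENSMUSG00000075023.12, chr2:93685706-93760827), an oocyte-enriched gene, stood at 2370 and 1438 CPM in G&N and at 845 and 859 CPM in G&N-L. Both G&N-L libraries were low and alike, and the G&N libraries differed from each other by more than the G&N-L libraries did. The log2 fold change was -1.16 (standard error 0.269, edgeR adjusted p = 0.9999). Hsf1, the heat shock transcription factor that oocytes supply, stood at 85.6 and 48.9 CPM in G&N and at 34.0 and 38.9 CPM in G&N-L, with a log2 fold change of -0.88 (interval -1.70 to -0.07). Oosp2 (ENSMUSG00000055895.7, chr19:11624643-11637923), an oocyte-secreted protein gene, stood at 334 and 258 CPM in G&N and at 585 and 515 CPM in G&N-L. Both G&N-L libraries lay above both G&N libraries, and the log2 fold change was 0.89 (standard error 0.211, edgeR adjusted p = 0.9999). Its neighbour on chromosome 19, Oosp1, had a log2 fold change of -0.29 (interval -0.78 to 0.19).

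**Figure D3:**
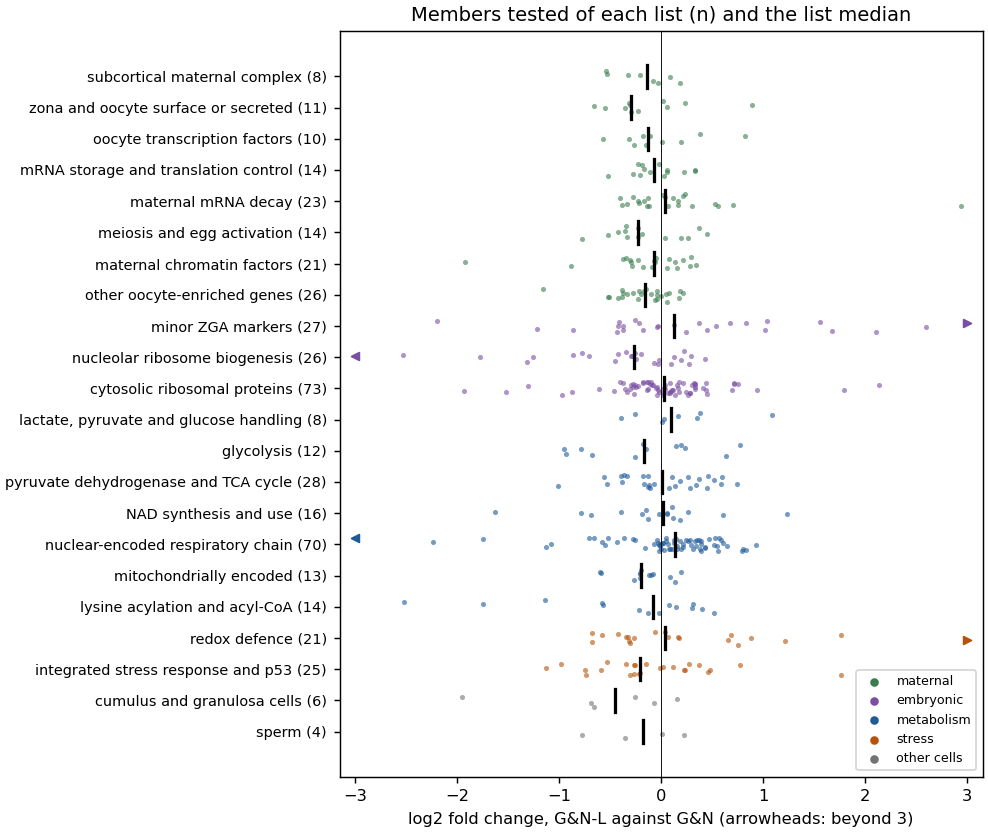
Each point is the log2 fold change of G&N-L against G&N (x axis) of a member of the list named on the row, with the number tested in brackets, and the black bar is the list median. The medians lie within 0.5 of 0, and 4 members beyond 3 are drawn as arrowheads.

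The later fate of this maternal profile was read from the late 2-cell libraries (54 h post-hCG) of the same media. These comparisons use the early libraries described above, so they are not independent of the early comparison, but the G&N and the G&N-L stage comparisons share no library with each other. Among the maternal genes, 37 of 128 were lower in late than in early G&N embryos at an edgeR adjusted p under 0.05 and 2 were higher, beside 5.47% lower and 8.18% higher over all genes. In embryos without lactate 38 of 128 fell and 6 rose, beside 5.87% lower and 5.97% higher over all genes. Over all genes 13.7% were called in G&N and 11.8% in G&N-L. The median log2 change was -0.77 in G&N and -0.34 in G&N-L, and whether it differed between the media was not tested for the list. Of the maternal genes called lower, 27 were shared, 73.0% of those in G&N and 71.1% of those in G&N-L. Over all genes tested in both, 642 were shared, 60.6% and 58.8%. Across the 128 genes the changes of both media had a Pearson's r of 0.78 and a Spearman's rho of 0.88, beside 0.70 and 0.72 over all 17126 genes tested in both, given as a description of genes within 8 libraries. Normalization by library totals moved the median of all genes from 0.08 to 0.46 in G&N and from 0.15 to 0.51 in G&N-L, so a change here is relative to the other genes. On that scale the maternal median was -0.41 in G&N, with 29 called lower and 8 higher, and 0.02 in G&N-L, with 27 called lower and 12 higher. The counts rested on both late libraries, and with 1 of them left out fewer genes were called over all genes too. The maternal median was then -0.76 or -0.91 in G&N and -0.41 or -0.37 in G&N-L. That of all genes was -0.08 or -0.10 in G&N and 0.14 or 0.15 in G&N-L. Without 1 early library the maternal median was -0.54 or -0.82 in G&N, beside 0.62 or 0.27 over all genes. In G&N-L it was -0.40 or -0.39, beside 0.54 or 0.38.

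Among the genes that fell in both media were Ooep, by 3.79 and 3.17 on the log2 scale (edgeR adjusted p = 0.00607 and 0.00489), and Dazl, by 3.15 and 2.25 (edgeR adjusted p = 0.00601 and 0.0116). Bcl2l10 fell by 3.27 and 2.90 (edgeR adjusted p = 0.00625 and 0.00512) and Nlrp5 by 2.26 and 2.88 (edgeR adjusted p = 0.0152 and 0.00531). Omt2b rose by 0.66 in G&N-L (edgeR adjusted p = 0.0292), while its log2 change in G&N was 0.83 (edgeR adjusted p = 0.174). Btg4 fell by 1.17 in G&N (edgeR adjusted p = 0.0427), while its log2 change in G&N-L was -0.39 (edgeR adjusted p = 0.0774). The interaction of stage and lactate, which tests such a difference for each gene in the 8 libraries, called 0 of 22287 genes (0%) at an adjusted p under 0.05. At an unadjusted p under 0.05 there were 1683 genes (7.55%), more than the 1114 that chance gives. No difference of this kind is thus shown for Btg4 by itself.

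The genes listed as minor ZGA markers had a lower sum in all 4 early libraries than in the late ones. The paper uses a classification in which minor ZGA genes are expressed mainly at the early 2-cell stage. Most members of this list rose by the late stage, as given below, so their low early level does not measure minor ZGA. The 31 markers found summed to 873 and 945 CPM in G&N and to 798 and 742 CPM in G&N-L, beside 5265 to 5949 CPM in the late libraries of both media. The member of highest level in each early library was Tcstv1, of the Tcstv family of the 2-cell stage, at 291 and 563 CPM in G&N and at 315 and 342 CPM in G&N-L. Zscan4d, of a cluster that marks 2-cell embryos, stood at 23.3 and 0.724 CPM in G&N and at 35.3 and 7.46 CPM in G&N-L. The first replicate was the higher one in both groups, and the replicates of G&N differed by more than the group means. BC147527 had the smallest p of the list, with a log2 fold change of 1.02 (interval -0.25 to 2.29). Zfp352, a zinc finger gene of the same stage, stood at 6.16 and 7.08 CPM in G&N and at 18.4 and 2.69 CPM in G&N-L. Of 27 markers tested, 13 were lower and 14 were higher, none met the fold criterion, and 2 had an interval within 2-fold. The median log2 fold change was 0.13 with a spread between replicates of 0.83 (SD), and it was -0.75 without G&N-L 1 and 0.75 without G&N-L 2, so its direction rested on 1 library. Many of these genes belong to multicopy families, so their counts depend on how reads that match several copies were assigned, which is not given in the sources used here. By the late stage 21 of 31 markers rose in G&N and 17 of 30 in G&N-L by edgeR's adjusted p under 0.05, beside 8.18% and 5.97% over all genes, with medians of 5.38 and 4.86 log2 units. Without 1 late library fewer were called, as over all genes, and the medians were 5.63 or 5.36 in G&N and 5.18 or 4.73 in G&N-L.

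**Figure D4:**
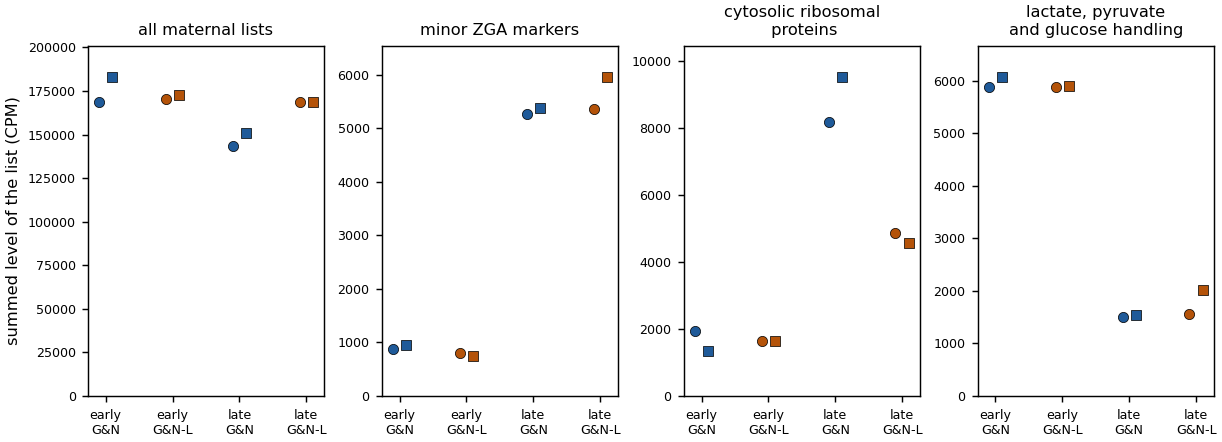
The summed level of 4 lists in CPM of the library total (y axis, from 0) is shown for the early and late G&N (blue) and G&N-L (orange) libraries, with replicate 1 as a circle and replicate 2 as a square. The early libraries of both media lie close together in each list, and genes listed as minor ZGA markers rise to 5265 CPM or more late. The sum of the lactate, pyruvate and glucose list, carried by Ldhb in the reads counted at the early stage, falls from 5875 CPM or more to 2010 CPM or less.

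By the reads counted, the list of genes that handle lactate, pyruvate and glucose was carried by Ldhb, a lactate dehydrogenase subunit and a target of Gne140. Ldhb (ENSMUSG00000030246.13, chr6:142435672-142454586) stood at 5218 and 6305 CPM in G&N and at 5848 and 5732 CPM in G&N-L, so the G&N-L libraries lay between the G&N libraries. Its log2 fold change was 0.01 with an interval of -0.41 to 0.42. It fell to the late stage by 2.87 in G&N and by 2.44 in G&N-L on the log2 scale (edgeR adjusted p = 0.00689 and 0.00600). Of the 10 list members tested between the stages, only Ldhb was called lower in each medium, and 2 were called higher. The list's median log2 change was 0.49 in G&N and 0.13 in G&N-L, beside 0.08 and 0.15 over all genes. Over all genes 5.47% and 5.87% were called lower and 8.18% and 5.97% higher. Ldha, the other subunit, had 32 counts in G&N 1 and 0 in the other 3 early libraries, and did not pass the filter. The paper, in contrast, reports high expression of both Ldha and Ldhb in 2-cell embryos. Ldha and Gapdh have processed pseudogenes, and Gapdh had 6, 1, 0 and 0 counts, so these values may miss reads that match several places. The share of Ldha beside Ldhb is therefore not settled by these counts. Ldhd, the mitochondrial D-lactate dehydrogenase, stood at 0.256 to 4.99 CPM.

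Of the carriers, the lactate and pyruvate carrier gene Slc16a1 stood at 16.9 and 10.3 CPM in G&N and at 7.26 and 13.5 CPM in G&N-L. Its log2 fold change was -0.39 (interval -1.59 to 0.81). Slc16a7, a second carrier of the family, ranged from 1.83 to 6.62 CPM, and Slc16a3 had 0 counts in all 4 libraries. Bsg, the chaperone that brings these carriers to the membrane, stood at 72.7 and 69.0 CPM in G&N and at 58.4 and 60.7 CPM in G&N-L. The G&N-L libraries lay below the G&N libraries, with a log2 fold change of -0.25 (interval -0.76 to 0.26). Mpc1 and Mpc2, which form the mitochondrial pyruvate carrier, had log2 fold changes of 0.17 (interval -0.66 to 0.999) and 0.35 (interval -0.83 to 1.53). The glucose transporter gene Slc2a1 stood at 9.74 and 7.56 CPM in G&N and at 9.22 and 8.45 CPM in G&N-L, and Slc2a3 had 3 to 19 counts. None of the 8 members tested met the fold criterion, and 3 (Ldhb, Bsg and Mpc1) had an interval within 2-fold.

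No other metabolic list held a called gene. In the list of pyruvate dehydrogenase and the TCA cycle, 14 of 28 members tested were lower and 14 higher, with a median of 0.01. Pdhx (ENSMUSG00000010914.11, chr2:102849769-102904060), a structural subunit of the pyruvate dehydrogenase complex and the only member past the fold criterion, stood at 435 and 388 CPM in G&N and at 298 and 273 CPM in G&N-L. Both G&N-L libraries were below both G&N libraries, and the log2 fold change was -0.53 (interval -0.98 to -0.07). For 12 glycolysis genes the median was -0.17 with a spread between replicates of 0.80 (SD), and for 16 genes of NAD synthesis and use it was 0.02. Pkm, pyruvate kinase, had the smallest p of the glycolysis list at -0.78 (interval -1.71 to 0.15), and Pgk1, phosphoglycerate kinase, the highest TPM at -0.15 (interval -0.90 to 0.60). In the NAD list Parp2, which uses NAD to mark DNA breaks, stood at 0.60 (interval -0.19 to 1.39). Sirt4, the mitochondrial sirtuin of highest level in that list, stood at 82.2 and 52.1 CPM in G&N and at 62.5 and 70.0 CPM in G&N-L. Of 70 nuclear-encoded respiratory chain genes, 46 were higher and 24 lower, with a median of 0.14 and a spread between replicates of 0.16 (SD). There the groups did not overlap for 24 higher and 6 lower genes, beside 16% and 17.1% over all genes, and 1 gene in each direction met the fold criterion. Those were Ndufa1, a complex I subunit, at 0.57 (interval 0.03 to 1.104), and Cyc1, cytochrome c1 of complex III, with 140, 23, 2 and 0 counts in the order G&N 1, G&N 2, G&N-L 1 and G&N-L 2. Cox8a, the complex IV subunit of highest level, had a log2 fold change of -0.25 (interval -0.71 to 0.21). The list's median ranged from 0.01 to 0.29 over the alternatives tried. Mitochondrially encoded RNA took 2.17% and 3.85% of counts in G&N and 3.13% and 2.65% in G&N-L. mt-Co2, a subunit of complex IV, met the fold criterion at 65.7 and 64.8 CPM in G&N and 42.7 and 44.2 CPM in G&N-L. These levels were low beside mt-Cytb, at 8415 to 19875 CPM in the same libraries. How reads that match several places were assigned is not given, and its bearing on mt-Co2 was not tested.

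Among 14 tested genes of lysine acylation and acyl-CoA supply, Aars1 (Aars in the count table), an alanyl-tRNA synthetase also described as a lactyltransferase, met the fold criterion. It stood at 5.58 and 2.59 CPM in G&N and at 0.618 and 0.810 CPM in G&N-L, with a log2 fold change of -2.52 (interval -4.61 to -0.43). Hdac2, a lysine deacetylase and the member of highest TPM, stood at 54.5 and 50.7 CPM in G&N and at 62.2 and 49.2 CPM in G&N-L. The list's median was -0.08.

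Of 73 cytosolic ribosomal protein genes tested, 34 were lower and 39 higher, with a median of 0.03 and a spread between replicates of 0.32 (SD), and the median was 0.37 without G&N 1. Only Rpl5 met the fold criterion, at 39.4 and 31.6 CPM in G&N and 56.8 and 62.8 CPM in G&N-L (log2 fold change 0.75, interval 0.15 to 1.35). Fau, the member of highest TPM, had a log2 fold change of 0.32 (interval -0.26 to 0.90). The list summed to 1341 to 1943 CPM in the early libraries, and 3 of its 80 members had no more than 3 counts in each of them. How reads that match several places were assigned is not given, so these levels may miss reads. By the late stage 48 of 80 members rose in G&N and 29 of 78 in G&N-L by edgeR's adjusted p under 0.05, beside 8.18% and 5.97% over all genes, with medians of 2.71 and 1.49 log2 units. Without 1 late library fewer were called, as over all genes, and the medians were 2.89 or 2.49 in G&N and 1.44 or 1.73 in G&N-L. Without 1 early library the G&N-L median was 1.77 or 1.60. Of 26 nucleolar ribosome biogenesis genes, 19 were lower and 7 higher, with a median of -0.27 and a spread of 0.37 (SD), and none met the fold criterion. There the groups did not overlap for 10 lower and 3 higher members, beside 17.1% and 16% over all genes. Bysl, a factor of small subunit assembly, had 173, 166, 0 and 6 counts. Npm1, the nucleolar chaperone of highest level, had a log2 fold change of -0.02 (interval -0.56 to 0.53). Of 25 genes of the integrated stress response and p53, 15 were lower, 10 higher and none past the fold criterion, with a median of -0.21. Its smallest p was that of Shmt2, a mitochondrial serine enzyme, at -0.53 (interval -1.19 to 0.13), and its highest level that of Mthfd2, of the same folate pathway, at -0.26 (interval -0.75 to 0.24). Of 21 redox defence genes, the superoxide dismutase gene Sod2 was past the criterion at -0.67 (interval -1.31 to -0.04) and the thioredoxin gene Txn1 at 0.66 (interval 0.01 to 1.30). Prdx1, the peroxiredoxin of highest level, had a log2 fold change of 0.04 (interval -0.39 to 0.47).

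The genes with the smallest p were named among those with a mean of at least 5 CPM and groups that did not overlap, 10 in each direction, and all had an edgeR adjusted p of 0.9999. They are given as the best candidates of a comparison in which no gene was called. Of the 20, 11 had an adjusted p under 0.05 by DESeq2.

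Lowest in G&N-L by p was Hes6 (ENSMUSG00000067071.9, chr1:91339204-91342103), a basic helix-loop-helix transcription factor gene. It stood at 14.03 and 14.2 CPM in G&N and at 2.87 and 3.07 CPM in G&N-L, with little spread in either group. The log2 fold change was -2.25 (standard error 0.412, DESeq2 adjusted p = 0.0162). Chrdl1 (ENSMUSG00000031283.17, chrX:142068670-142177258), which encodes a BMP antagonist, stood at 49.3 and 64.96 CPM in G&N and at 15.7 and 23.6 CPM in G&N-L, a log2 fold change of -1.54 (standard error 0.320). Mipep (ENSMUSG00000021993.11, chr14:61021993-61144530), a peptidase that trims proteins imported into mitochondria, stood at 294 and 327 CPM in G&N and at 173 and 128 CPM in G&N-L, a log2 fold change of -1.04 (standard error 0.227). Msl3, a chromodomain subunit of a histone H4 acetyltransferase complex, stood at 197 and 181 CPM in G&N and at 112 and 104 CPM in G&N-L. The others were Gm30564, an lncRNA, at -1.54, Nt5dc1 at -1.30, Tfpi, an inhibitor of coagulation, at -2.05, the exocyst gene Exoc3 at -2.32, Zfp825 at -2.05, and Accsl.

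Highest by p was Dynlt1b (ENSMUSG00000096255.3, chr17:6697471-6703695, plus strand), which encodes a light chain of the dynein motor. It stood at 29.9 and 27.1 CPM in G&N and at 69.1 and 66.2 CPM in G&N-L, a log2 fold change of 1.25 (standard error 0.225, DESeq2 adjusted p = 0.00941). Dynlt1-ps1 (chr6:135326406-135326747, minus strand), a processed pseudogene of the same family, came next, at 77.1 and 73.7 CPM in G&N and 167 and 140.5 CPM in G&N-L. These are not independent findings. The 342 bases of the pseudogene match the Dynlt1b transcript at 341 positions without a gap, and the other family members match the Dynlt1b transcript at 98.7% to 99.1% of aligned bases. The stretch around the only mismatch is shown because it is the only place where the reads of both genes differ within these 342 bases. Both sequences are from the GENCODE transcripts of mm39, bases 6 to 35 counted from the first base of the start codon, with the mismatch in capitals.
Dynlt1b: agacttccaggcctcAgaggagactgcatt
Dynlt1-ps1: agacttccaggcctcCgaggagactgcatt
Summed over Dynlt1a, Dynlt1b, Dynlt1c, Dynlt1f and Dynlt1-ps1, the family stood at 157 and 133.5 CPM in G&N and at 299.5 and 270.5 CPM in G&N-L. Dynlt1c alone went the other way, at 16.2 and 21.6 CPM in G&N and 12.2 and 11.6 CPM in G&N-L. The family as a whole therefore lay above G&N in both G&N-L libraries, while how it divides among copies is uncertain.

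The other higher genes were Gm47003, an lncRNA, with a log2 fold change of 1.17, and Efhc2, an EF-hand gene, at 0.94. Rttn, which encodes the centriole protein rotatin, stood at 89.5 and 119.9 CPM in G&N and at 203 and 254 CPM in G&N-L. Cyb5a, cytochrome b5, stood at 149.8 and 144 CPM in G&N and at 285 and 232 CPM in G&N-L. 9130023H24Rik stood at a log2 fold change of 1.14, Rida, an imine deaminase gene, at 1.01, the growth factor gene Fgf10 at 1.37, and Oosp2 as given above. Of the 20 genes, Accsl and Oosp2 were members of the maternal lists.

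**Figure D5:**
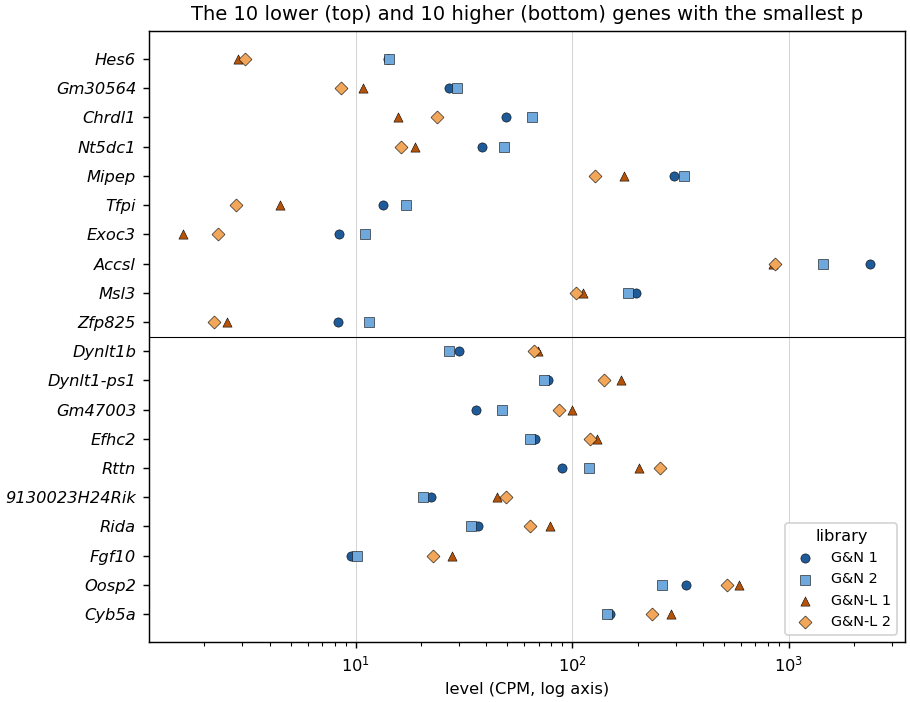
The level in CPM (x axis, log) of the 10 lower and 10 higher genes with the smallest p (rows, divided by the line) is shown in each early 2-cell library, 1 mark per library. The G&N marks (blue) and the G&N-L marks (orange) do not overlap in any row, a property used to choose the genes.

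The 37 genes called by DESeq2 were mostly of low level. In 24 of them both libraries of 1 group had no more than 3 counts, 11 with the low group in G&N-L and 13 with it in G&N. All 37 had an unadjusted edgeR p under 0.05. Il33, an alarmin cytokine gene, had 156 and 346 counts in G&N and 0 in both G&N-L libraries. Its mean level in G&N was 47.5 times the mean limit of 3 counts per library in G&N-L. This ratio leaves out the spread between libraries, so it is not a lower bound of the difference. Enpep, an aminopeptidase gene, had 221 and 218 counts in G&N and 0 in G&N-L, with a ratio of 40.5. Lrrc75a had 371, 123, 1 and 0 counts and Ceacam5 248, 158, 0 and 1, in the order G&N 1, G&N 2, G&N-L 1 and G&N-L 2. In the other direction, Gm45509, an lncRNA, had 0 counts in both G&N libraries and 305 and 36 in G&N-L, with a ratio of 74.9. Fgf7, a growth factor gene, had 0 in both G&N libraries and 40 and 112 in G&N-L, with a ratio of 53.2. Tspo, a protein of the outer mitochondrial membrane, had 76 and 63 counts in G&N-L and none in G&N, with a ratio of 40.5. Mpzl3 stood at 0.299 and 0.302 CPM in G&N and 7.30 and 4.09 CPM in G&N-L.

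Presence in 1 sample and absence in another was also common between replicates. With 0 counts in both G&N-L libraries and at least 1 in both G&N libraries there were 228 genes tested, and 106 with the reverse. Between the replicates, 838 genes had 0 counts in 1 G&N library and at least 50 in the other, and 654 did so in G&N-L. At least 50 counts in both libraries of the group where the gene was found were seen for 37 of the 228 genes and for 3 of the 106.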

How the data were processed

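RNA-seq counts of 14 libraries, 2 per group, were used, 4 of them early 2-cell. The submitters' processing notes name FastQC, Trim Galore, HISAT2, featureCounts, DESeq2 and the build mm39, and the values the authors deposited are raw counts per gene. Versions, strand and the handling of multimapping reads are not given in the sources used here. The protocol gives 3 replicates per group and the counts hold 2. Whether the libraries came from separate collections is not stated, so p-values measure the spread between these samples, which may be technical.

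Counts were filtered and normalized (TMM) and groups compared, two-sided, in edgeR 4.0.16 (R 4.3.3, limma 3.58.1), each comparison on its own 4 libraries and the interaction on 8, with Benjamini-Hochberg adjustment. With 2 libraries a group, 0.333 is the smallest two-sided p of an exact permutation test. Intervals are 95%, from the standard error and the t quantile. CPM of genes uses TMM, and sums of lists use library totals. TPM used merged exon lengths of the GENCODE annotation on mm39, which holds 56236 of 56923 genes by identifier, and gene coordinates are from it. Replicates differed by more than counting noise (chi-square per degree of freedom 224 and 50.0). Scripts were tested on simulated data with less spread between replicates than the early libraries have, so that test does not cover recovery at their spread. The genes named were 10 per direction by p, the 15 highest by TPM, the lactate list, 2 per other list (smallest p, highest level by TPM) and 5 per direction of the DESeq2 1.42.0 calls. Members past the fold criterion, defining markers and examples such as Zscan4d, Zfp352, Ooep, Nlrp5 and the Dynlt1 family were added after their values were seen. The members, lists and rules were chosen with earlier results of these data known. Of 532 list symbols, 526 were found. The alternatives were DESeq2, its size factors, library totals, other filters, all 14 libraries, the replicate number as a block and each library left out.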

Additional observations from a re-analysis of the deposited data

How the results depend on the processing

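The count of calls in early G&N-L against G&N was also 0 with size factors of DESeq2, library totals, at least 10 counts in every library and the replicate block, and fits with a library left out, which have less power, add nothing to a count of 0. It was 37 with DESeq2, 42 without a filter (26885 genes tested) and 4 with all 14 libraries in one fit. Genes past the fold criterion were 269 lower with at least 10 counts in every library, 153 lower and 148 higher with the replicate block, 565 higher without a filter and 509 higher with all 14 libraries, and ranged from 396 to 513 lower and 164 to 759 higher with each library left out. Narrow intervals numbered 1971 with all 14 libraries and 487 to 2718 with each library left out. Late against early, calls were 5959 (G&N) and 5218 (G&N-L) with DESeq2, 5060 in G&N without a filter, 1391 in G&N-L with the replicate block, and 220 to 2446 (G&N) and 335 to 1393 (G&N-L) with each library left out. The cause was not tested beyond the smaller number of samples where a library is left out. The deviations of equal replicate numbers correlated at -0.11 across genes. This cannot decide whether equal numbers mark paired samples, since it rests on a single difference per group and genes are not independent. With numbers crossed, an alternative chosen after seeing the data, 0 genes were called, with 311 lower and 257 higher past the fold criterion. The block moved no other count of calls over all genes by over 1.5 times. With a library left out 9 list medians moved by more than the spread between replicates and 83 did not, and under the other alternatives 1 did and 183 did not. Depth ran from 23473359 to 61275465 counts, and the replicates spread beyond counting noise with a common biological coefficient of variation of 0.753.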

Other observations

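Some abundant transcripts differed strongly between replicates. These genes were singled out after their values were seen. Of the 4632 genes with a mean of at least 20 CPM, 11 differed by more than 3 log2 units between the replicates of a group, 10 in G&N and 5 in G&N-L. Pramel27 (chr4:143573067-143580207 of mm39), a member of the Prame-like family of oocytes and early embryos, stood at 9.20 and 623 CPM in G&N and at 614 and 3.07 CPM in G&N-L. Its log2 fold change between the groups thus set 1 high and 1 low library against the same, and the unadjusted edgeR p was 0.988. Pramel23 (chr4:143423070-143429281) stood at 13.1 and 217 CPM in G&N and at 179 and 9.72 CPM in G&N-L. Gm13058 (chr4:143321632-143324181), a transcribed pseudogene nearby, stood at 5.00 and 132 CPM in G&N and at 315 and 4.18 CPM in G&N-L. These 3 genes lie on the same stretch of chromosome 4 and were high in G&N 2 and G&N-L 1.

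Slco1a4, an organic anion transporter gene on chromosome 6, had the same pattern at 0.135 and 69.7 CPM in G&N and 11.4 and 0 CPM in G&N-L, and so did Emb, a chaperone of lactate and pyruvate carriers, at 10.8 and 83.8 CPM in G&N and 19.2 and 1.24 CPM in G&N-L. A gap of more than 2 log2 units in both groups was seen for 6 genes, and in all 6 the high replicate had number 2 in one group and number 1 in the other. Tceal8 on the X chromosome differed in G&N alone at that size, at 855 and 31.2 CPM, beside 290 and 343 CPM in G&N-L.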
